A study of Mus musculus with 4 samples.

Results

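The clustered protocadherins are 58 genes in 3 tandem arrays on mouse chromosome 18, taken here by symbol from all 22096 gene symbols of the deposited tables. They comprise 14 genes of the alpha cluster (Pcdha1 to Pcdha12, Pcdhac1 and Pcdhac2), 22 genes of the beta cluster (Pcdhb1 to Pcdhb22) and 22 genes of the gamma cluster (12 of type A, 7 of type B, and Pcdhgc3, Pcdhgc4 and Pcdhgc5). Each member is 1 transcript row, so its gene sum equals that row. On mm9 the alpha cluster runs from 37089939 to 37347314, the beta cluster from 37424652 to 37681073 and the gamma cluster from 37821599 to 38001526 on chromosome 18.

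RNA was sequenced from whole spinal cord of mice of mixed strain background at postnatal day 8. The 2 cKO libraries came from Chd7f/f; Olig1-cre animals and the 2 Ctrl libraries from Chd7f/+; Olig1-cre animals. Both groups thus carry Olig1-cre, which acts in cells of the oligodendrocyte lineage, and at least 1 floxed allele of Chd7, which encodes a chromatin remodeler. Chd7 itself was at 2.52 and 3.38 FPKM in cKO 1 and 2, against 3.52 and 3.12 FPKM in Ctrl 1 and 2, so the groups overlapped in the targeted gene (log2 fold change -0.13, limma adjusted p = 0.657). That value covers the whole transcript in all cells of the cord, and the labels do not name the floxed exon, so it is no direct check of the deletion. The labels do not say whether the libraries of a group are separate animals, so p-values measure the spread between these libraries, which may be technical.

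Clustered protocadherins are cadherin-like adhesion proteins of neurons and of some glia. In mouse neurons each cell chooses a few of the alpha, beta, gamma A and gamma B promoters, through binding of CTCF and cohesin looping to distant enhancers, and the proteins made recognise the same isoforms on other membranes, which lets a neuron avoid its own branches. The C-type members (Pcdhac1, Pcdhac2, Pcdhgc3, Pcdhgc4 and Pcdhgc5) lie at the downstream end of their clusters and are switched on by cell type and stage, with less of this choice. Every alpha isoform joins its own first exon to constant exons shared by the cluster, the gamma isoforms do the same with theirs, and beta genes have no shared exons. In mouse spinal cord the gamma cluster is known for keeping interneurons alive.

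The shared exons limit how well isoforms can be told apart. Of the 50-base stretches of a member's transcript in GENCODE M21, matched by RefSeq accession, 36.1% to 51.8% occurred in no other member for the 14 alpha transcripts and 45.4% to 58.8% for 21 gamma transcripts. For 14 beta transcripts the share was 88% to 100%. These ranges cover the transcripts whose length was within 10% of the length in the deposited tables. Among these transcripts no stretch was shared between clusters. Levels are FPKM (fragments per kilobase of transcript, scaled to library size), estimated by the authors, and part of each alpha or gamma value rests on how reads in shared exons were divided. Cluster totals, the sums of FPKM over all members, depend less on that division.

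Relative depth, from the ratio of coverage to FPKM, was 2.22 and 3.19 in cKO 1 and cKO 2, against 2.07 and 1 in Ctrl 1 and Ctrl 2. Ctrl 2 is therefore the shallowest library, with a median coverage of 0.871, 0.874 and 1.94 reads per base over the alpha, beta and gamma members. Libraries differed in sex-linked and meningeal RNA: the Y-linked gene Ddx3y was at 0.195 and 11.6 FPKM in cKO 1 and 2 and at 0.144 and 0.0720 FPKM in Ctrl 1 and 2, and the meningeal gene Ptgds was at 4.57 and 7.54 FPKM in cKO against 161 and 16.2 FPKM in Ctrl. Counts of members are given without each library as well.

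Gene sums with a mean of at least 1 FPKM over the 4 libraries were tested with limma on log2(FPKM + 1), with p-values adjusted over all 12913 genes and a threshold of 0.05. Of the 58 members, 48 entered this test, and 9 rose and 4 fell in cKO cords. Over all genes tested, 4.13% rose and 6.54% fell, 10.7% in all, against 18.8% and 8.33% of the tested members. A member whose mean stayed above the filter through 1 group alone had to differ, and 6 tested members had a group mean under 1 FPKM, of which 5 passed. Of the other 42, 8 passed, which is 19.0%, and among all genes with both group means at 1 FPKM or more, 10.1% passed. In these 42, 7 rose and 1 fell, 16.7% and 2.38%, against 3.9% and 6.21% of those genes. With no filter on low FPKM, 55 of all genes passed, and Pcdhgb8 was the 1 member among them. The members share a locus, and alpha and gamma members share exons, so these calls are not independent of each other. Without cKO 1, 1 member rose and 2 fell; without cKO 2, 3 rose and 2 fell; without Ctrl 1, 9 rose and 1 fell; and without Ctrl 2, 5 rose and 6 fell.

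**Figure D1:**
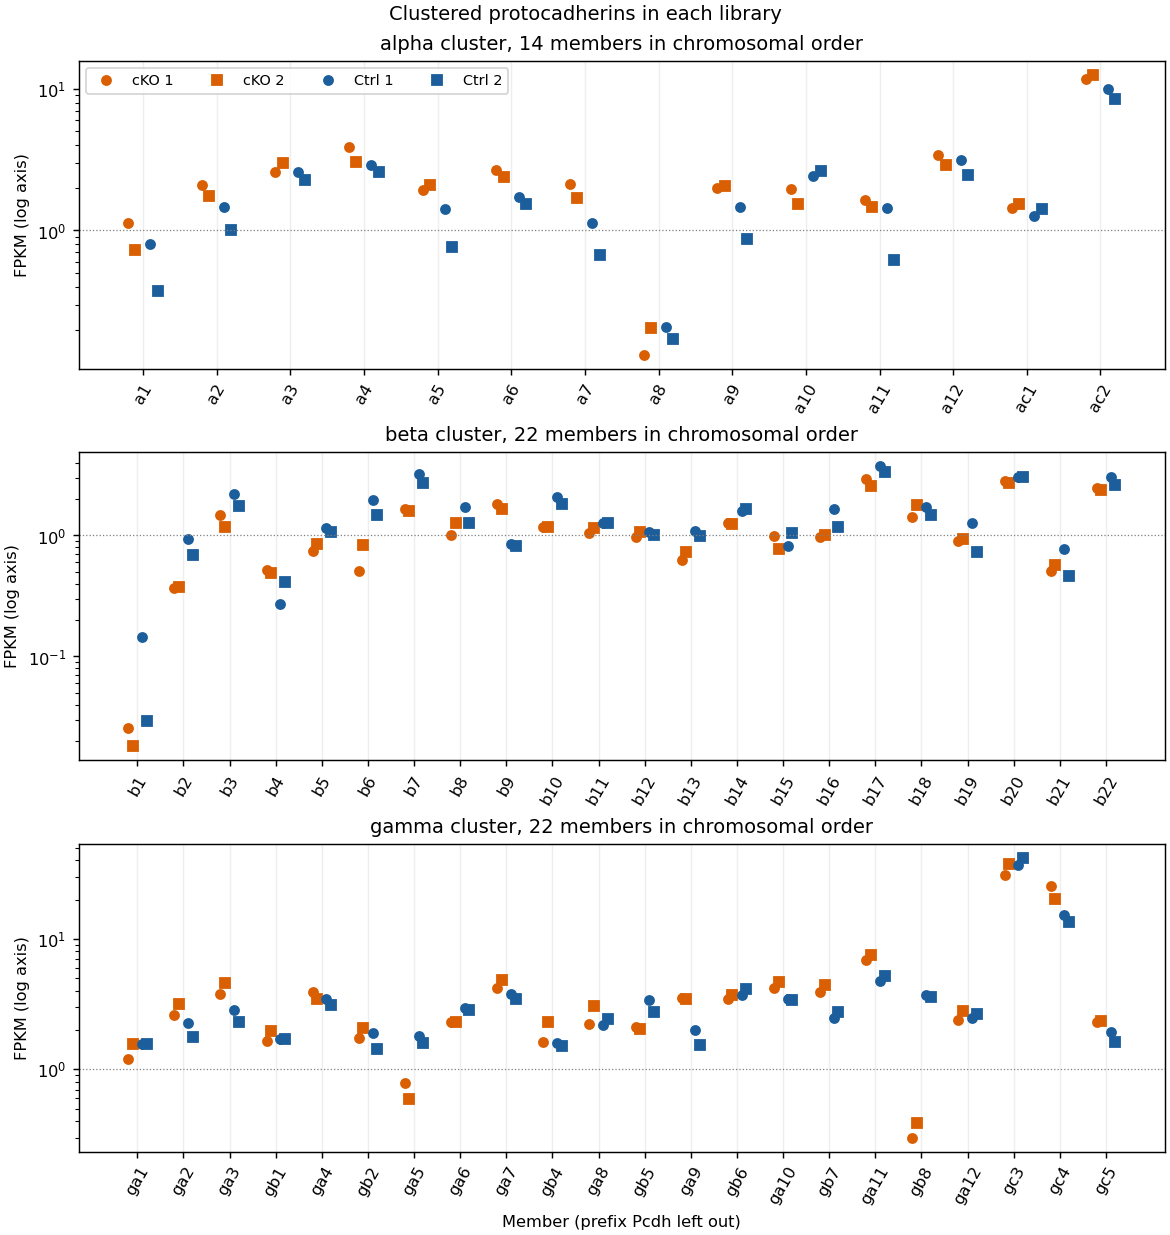
FPKM of each member (log axis) in cKO 1, cKO 2, Ctrl 1 and Ctrl 2, in chromosomal order within each cluster; the dotted line marks 1 FPKM. Pcdhgb8 lies at 0.300 and 0.386 FPKM in cKO and at 3.70 and 3.59 FPKM in Ctrl, Pcdhgc3 and Pcdhgc4 are the highest gamma members and Pcdhac2 the highest alpha member.

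The 3 cluster totals differed in direction. The alpha total was 38.8 and 36.9 FPKM in cKO 1 and 2, against 32.0 and 25.9 FPKM in Ctrl 1 and 2. The beta total was 26.2 and 26.4 FPKM in cKO, against 35.7 and 30.9 FPKM in Ctrl. The gamma total was 111 and 119 FPKM in cKO, against 106 and 107 FPKM in Ctrl. The groups did not overlap in any of the 3 totals, with alpha and gamma higher and beta lower in cKO. Of all single genes tested, 53.5% had such a gap in either direction. In means, alpha was 37.9 ± 1.34 FPKM in cKO and 28.9 ± 4.34 FPKM in Ctrl (SD, n = 2 each), 1.31-fold higher. Beta was 26.3 ± 0.149 FPKM in cKO and 33.3 ± 3.44 FPKM in Ctrl, 1.27-fold lower, and gamma was 115 ± 5.60 FPKM in cKO and 106 ± 0.261 FPKM in Ctrl, 1.08-fold higher. Summed over all 58 members the total was 176 and 182 FPKM in cKO against 174 and 163 FPKM in Ctrl. With 2 libraries a group an exact two-sided permutation test of a single value cannot go below p = 0.333, so the totals carry no test. Without Ctrl 1 the log2 ratio of the alpha total was 0.55 instead of 0.39 and that of the beta total -0.23 instead of -0.34. Without Ctrl 2 the alpha ratio was 0.24, and without cKO 2 the gamma ratio was 0.06 instead of 0.11.

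**Figure D2:**
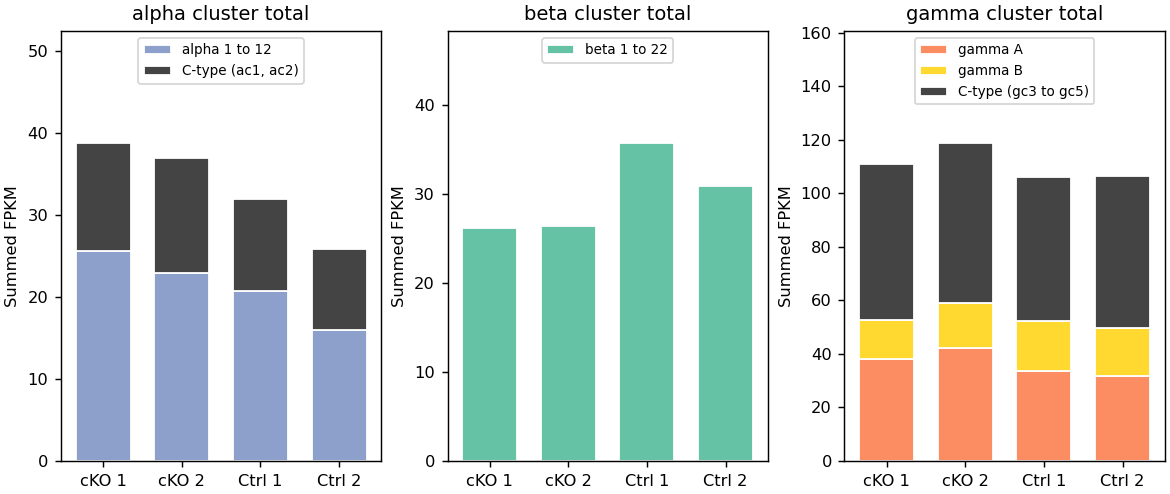
Summed FPKM of the alpha, beta and gamma clusters in each library, stacked by subgroup, with axes from 0. The alpha total is 38.8 and 36.9 in cKO against 32.0 and 25.9 in Ctrl, the beta total 26.2 and 26.4 in cKO against 35.7 and 30.9 in Ctrl, and the gamma total 111 and 119 in cKO against 106 and 107 in Ctrl.

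Among the alpha members, Pcdha5, Pcdha7 and Pcdha9 rose and none fell, of 12 tested. Pcdha7 was at 2.14 and 1.68 FPKM in cKO 1 and 2, against 1.12 and 0.677 FPKM in Ctrl 1 and 2. Both cKO libraries lay above both Ctrl libraries, by 1.5004-fold in the closest pair and so barely past 1.5-fold, and the log2 fold change was 0.62 ± 0.16 (SE, limma adjusted p = 0.00928). Its Ctrl mean was under 1 FPKM. Pcdha5 was at 1.93 and 2.08 FPKM in cKO and 1.42 and 0.767 FPKM in Ctrl (log2 fold change 0.54, adjusted p = 0.0279). Pcdha9 was at 1.996 and 2.07 FPKM in cKO and 1.47 and 0.870 FPKM in Ctrl (0.50, adjusted p = 0.0414). In all 3 genes Ctrl 2 was the lowest library, and the Ctrl libraries lay further apart than the cKO libraries for Pcdha5 and Pcdha9. Without Ctrl 2 or without cKO 1 no alpha member passed, and without cKO 2 Pcdha7 did. Without Ctrl 1, Pcdha2 and Pcdha11 passed as well, 5 in all.

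The other alpha members mostly lay on the same side. Over all 14, the mean was higher in cKO for 12, and for 10 of the 12 tested both cKO libraries lay above both Ctrl libraries. Such a gap upward was found for 24.3% of all genes tested, and a gap in either direction for 53.5%. The median log2 fold change of the 12 tested was 0.36, against -0.003 over all genes. Pcdha10 went the other way, at 1.95 and 1.54 FPKM in cKO against 2.44 and 2.63 FPKM in Ctrl, and its log2 fold change of -0.37 did not pass (adjusted p = 0.13). Pcdha4 and Pcdha12, the highest members after Pcdhac2, did not pass, with differences of 0.26 and 0.13, nor did Pcdha3, at 0.14. Without Ctrl 2, the value of Pcdha12 was -0.001. Pcdha1 and Pcdha8 were below the filter, and Pcdha8 was the lowest of the cluster at 0.132 to 0.208 FPKM over the 4 libraries.

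The C-type alpha members differed in level. Pcdhac2, which in mouse is needed for the spacing of serotonergic axons, was the highest alpha member at 11.8 and 12.5 FPKM in cKO, against 9.96 and 8.48 FPKM in Ctrl. All cKO values lay above the Ctrl values, but the difference, 0.37 ± 0.15 (SE) on the log2 scale, missed the threshold (limma adjusted p = 0.118). It made up 32.1% of the alpha total in cKO and 32.0% in Ctrl. Pcdhac1 was at 1.45 and 1.53 FPKM in cKO and 1.27 and 1.42 FPKM in Ctrl (0.08, adjusted p = 0.795).

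In the beta cluster, whose single-exon genes encode proteins without a shared cytoplasmic end, Pcdhb6 and Pcdhb7 fell and Pcdhb9 rose, of 14 tested. Pcdhb6 was at 0.509 and 0.833 FPKM in cKO 1 and 2, against 1.98 and 1.47 FPKM in Ctrl 1 and 2, a mean 2.57-fold lower (log2 fold change -0.71 ± 0.16, SE, limma adjusted p = 0.00307). Its cKO mean was under 1 FPKM, and without Ctrl 1 its mean fell below the filter, so Pcdhb6 was not tested there. Its neighbour Pcdhb7 was at 1.66 and 1.59 FPKM in cKO and 3.25 and 2.70 FPKM in Ctrl, 1.83-fold lower (-0.60, adjusted p = 0.00859). Pcdhb9 was at 1.82 and 1.66 FPKM in cKO and 0.853 and 0.825 FPKM in Ctrl, 2.07-fold higher (0.57, adjusted p = 0.0130), with a Ctrl mean under 1 FPKM. For each of the 3 genes the groups were at least 1.5-fold apart. Pcdhb9 and Pcdhb7 are each other's nearest match by sequence, with 6.29% of the stretches of Pcdhb9 found in Pcdhb7 and 5.48% the other way. Without cKO 1 no beta member passed, without cKO 2 only Pcdhb6 did, without Ctrl 1 only Pcdhb9 did, and without Ctrl 2 these 3 and Pcdhb10 did.

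Most other beta members were lower in cKO without passing. Over all 22, the mean was lower in cKO for 19, and for 14 both cKO libraries lay below both Ctrl libraries, 10 of them among the 14 tested. Such a gap downward was found for 29.3% of all genes tested. The median log2 fold change of the 14 tested was -0.22. Pcdhb10 was at 1.17 and 1.19 FPKM in cKO and 2.09 and 1.81 FPKM in Ctrl, 1.66-fold lower and beyond 1.5-fold in every pair of libraries, with an adjusted p of 0.0668. The 3 highest members, Pcdhb17, Pcdhb20 and Pcdhb22, did not pass, with differences of -0.29, -0.10 and -0.16. Among the 8 members below the filter, Pcdhb2 was at 0.366 and 0.373 FPKM in cKO against 0.941 and 0.689 FPKM in Ctrl. Pcdhb4, also below the filter, was the other beta member besides Pcdhb9 with both cKO libraries above both Ctrl libraries, at 0.516 and 0.494 FPKM in cKO against 0.270 and 0.416 FPKM in Ctrl. Pcdhb1 was the lowest of all members, at 0.0256 and 0.0182 FPKM in cKO and 0.144 and 0.0291 FPKM in Ctrl, where coverage was 0.0407, 0.0415, 0.214 and 0.0209 reads per base in the same order.

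**Figure D3:**
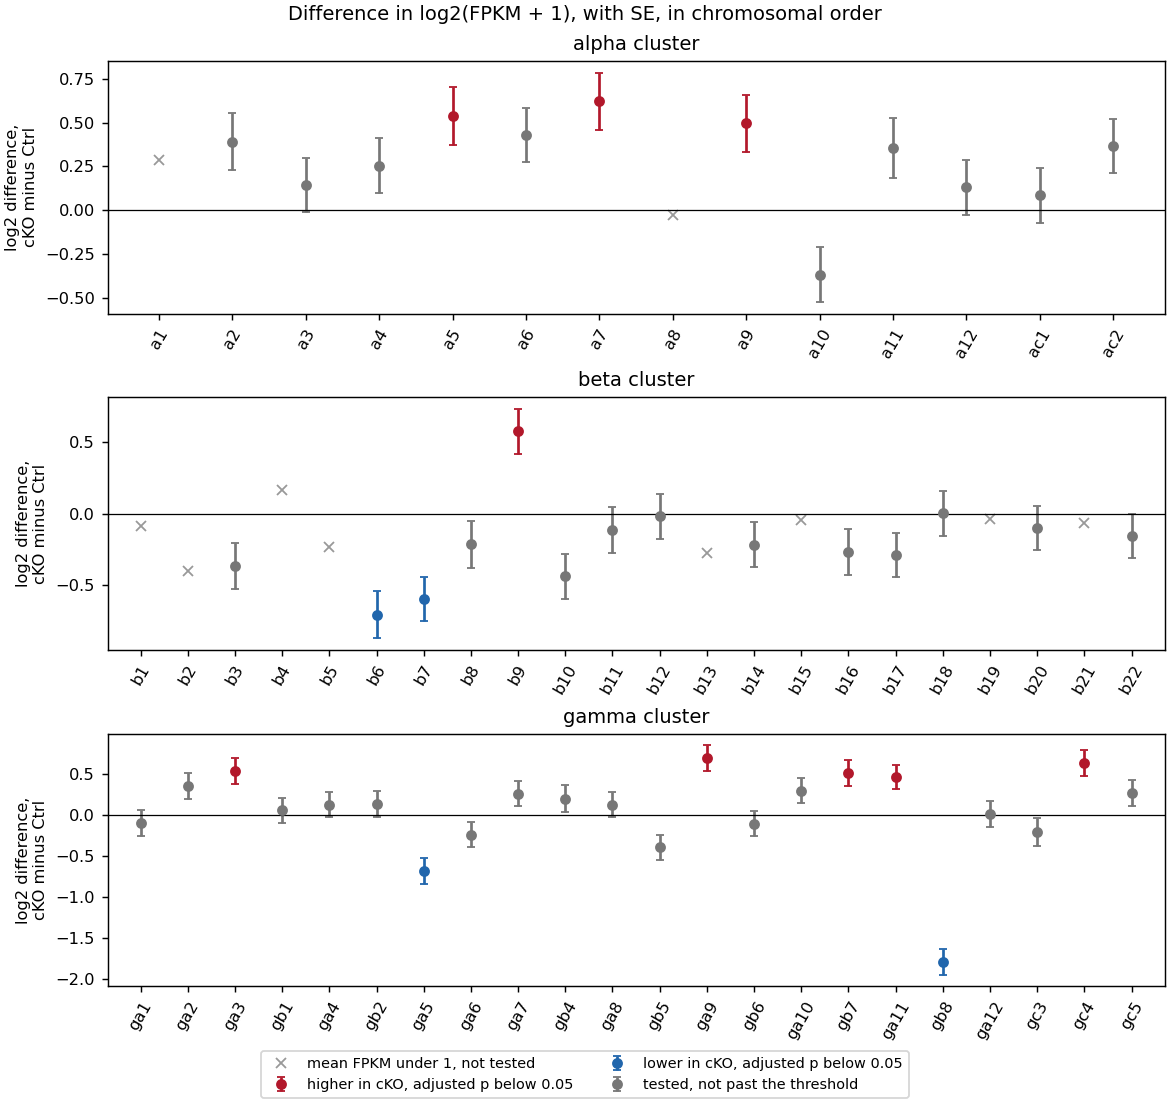
Difference in log2(FPKM + 1), cKO minus Ctrl, of each member in chromosomal order, with the limma SE for tested members; red and blue points passed the adjusted p threshold, grey points did not, and crosses were not tested. Alpha points lie mostly above 0 and beta points mostly below it, while the gamma cluster holds both Pcdhgb8 at -1.79 and Pcdhga9 at 0.69.

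The gamma cluster held the largest difference of all members. Pcdhgb8, a type B gene near the downstream end of the variable exons and the 1 member that GENCODE M21 lists as a polymorphic pseudogene, a gene that is intact in some genomes of a species and not in others, was at 0.300 and 0.386 FPKM in cKO 1 and 2, against 3.70 and 3.59 FPKM in Ctrl 1 and 2. Both cKO libraries were far below both Ctrl libraries, and the replicates of each group lay close together. The means were 0.343 ± 0.0606 FPKM in cKO and 3.64 ± 0.0794 FPKM in Ctrl (SD, n = 2 each), 10.6-fold lower. On the log2(FPKM + 1) scale, which understates such a change, the difference was -1.79 ± 0.16 (SE, limma adjusted p = 8.00e-11), the 10th smallest p of the 12913 genes. Coverage of the transcript was 0.478 and 0.882 reads per base in cKO, against 5.50 and 2.57 reads per base in Ctrl. Of the other members, 56 are listed as protein coding and Pcdha10 was not matched by symbol. The strain at this locus in each library was not tested. Pcdhgb8 passed in each fit that left out 1 library, with log2 fold changes of -1.84 to -1.74. It did not pass in a fit of all transcripts (adjusted p = 0.0813), in which 0.129% of 15494 transcripts passed. Its neighbours did not fall: Pcdhga11, just upstream, was at 6.93 and 7.57 FPKM in cKO and 4.75 and 5.23 FPKM in Ctrl, and Pcdhga12, just downstream, was at 2.39 and 2.82 FPKM in cKO and 2.49 and 2.64 FPKM in Ctrl (0.01, adjusted p = 0.976).

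Pcdhga5 fell as well. It was at 0.783 and 0.589 FPKM in cKO against 1.81 and 1.59 FPKM in Ctrl, 2.48-fold lower (log2 fold change -0.68 ± 0.16, SE, limma adjusted p = 0.00321), and its cKO mean was under 1 FPKM. Without cKO 2 it did not pass, and without Ctrl 1 its mean fell below the filter. Pcdhgb8 and Pcdhga5 were the members whose groups were at least 2-fold apart, 4.17% of those tested, against 0.651% of all genes lower by that rule, 0.24% higher and 0.891% in all, and no member was 2-fold higher. Both have a cKO mean under 1 FPKM and passed the filter through Ctrl alone, so they had to differ, and of the other 42 members 0 were 2-fold apart. At 1.5-fold, 3 members lay higher and 5 lower, 6.25% and 10.4% of those tested, against 0.991% and 2.84% of all genes and 3.83% in all. Of these 8 members, 5 (Pcdha7, Pcdhb6, Pcdhb9, Pcdhga5 and Pcdhgb8) passed the filter through 1 group alone. Among the other 42, Pcdhga9 lay higher and Pcdhb7 and Pcdhb10 lower, 7.14% in all, against 3.23% of genes with both group means at 1 FPKM or more.

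Other type A and type B genes rose. Pcdhga9 was at 3.51 and 3.45 FPKM in cKO, against 2.02 and 1.54 FPKM in Ctrl, 1.96-fold higher (log2 fold change 0.69 ± 0.16, SE, limma adjusted p = 0.00210), and it passed without any 1 of the libraries. Pcdhga3 was at 3.78 and 4.58 FPKM in cKO and 2.86 and 2.29 FPKM in Ctrl (0.54, adjusted p = 0.0191). Pcdhgb7 was at 3.94 and 4.39 FPKM in cKO and 2.49 and 2.77 FPKM in Ctrl (0.51, adjusted p = 0.0240), and Pcdhga11, the highest type A gene, had a log2 fold change of 0.46 (adjusted p = 0.0398). In each of these genes both cKO libraries lay above both Ctrl libraries. Pcdhga3 was lost without cKO 1, cKO 2 or Ctrl 2, and Pcdhgb7 and Pcdhga11 without cKO 1, cKO 2 or Ctrl 1.

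Summed by type, gamma A was at 38.0 and 42.0 FPKM in cKO against 33.6 and 31.9 FPKM in Ctrl, and gamma B at 14.8 and 16.9 FPKM in cKO against 18.5 and 17.9 FPKM in Ctrl. The groups did not overlap in either sum, and 53.5% of all single genes tested had such a gap. The fall of Pcdhgb8, 3.30 FPKM in the means, was larger than the difference of 2.38 FPKM between the gamma B sums. Pcdhgb6, the highest type B gene, was at 3.46 and 3.68 FPKM in cKO and 3.72 and 4.16 FPKM in Ctrl (-0.11, adjusted p = 0.710). Pcdhgb5 was at 2.13 and 2.05 FPKM in cKO and 3.38 and 2.77 FPKM in Ctrl (-0.40, adjusted p = 0.0952), and passed without Ctrl 2. Pcdhga7 and Pcdhga10 did not pass, at 0.26 and 0.29.

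The C-type gamma genes made up a large part of the cluster. Pcdhgc3, which in mouse cortex promotes dendrite branching, was the highest of all members at 30.6 and 37.4 FPKM in cKO, against 37.0 and 41.7 FPKM in Ctrl. The groups overlapped and the difference did not pass (log2 fold change -0.21 ± 0.17, SE, limma adjusted p = 0.478). Pcdhgc4, the isoform known in mouse to carry the survival function of the cluster in neurons, rose to 25.3 and 20.3 FPKM in cKO, against 15.2 and 13.5 FPKM in Ctrl. The groups did not overlap, the means were 22.8 ± 3.52 FPKM in cKO and 14.3 ± 1.22 FPKM in Ctrl (SD, n = 2 each). The log2 fold change was 0.63 ± 0.16 (SE, limma adjusted p = 0.00640). Without cKO 1 it was 0.48 and did not pass (adjusted p = 0.278). Pcdhgc5, which in mouse comes on late in postnatal development, was at 2.30 and 2.35 FPKM in cKO and 1.93 and 1.62 FPKM in Ctrl (0.26, adjusted p = 0.305). Without Pcdhgc3 the gamma total was 80.4 and 81.5 FPKM in cKO, against 69.3 and 64.9 FPKM in Ctrl.

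Shares of the cluster total describe the mix of isoforms apart from the level of the cluster. In the gamma cluster, Pcdhgc3 averaged 29.5% in cKO and 37.0% in Ctrl, Pcdhgc4 19.9% in cKO and 13.5% in Ctrl, and Pcdhgb8 0.298% in cKO and 3.42% in Ctrl. In the alpha cluster, Pcdha10 averaged 4.61% in cKO and 8.91% in Ctrl and Pcdha7 5.03% in cKO and 3.06% in Ctrl. In the beta cluster, Pcdhb9 averaged 6.61% in cKO and 2.53% in Ctrl, and Pcdhb6 2.55% in cKO and 5.15% in Ctrl. The plot of shares shows all members.

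**Figure D4:**
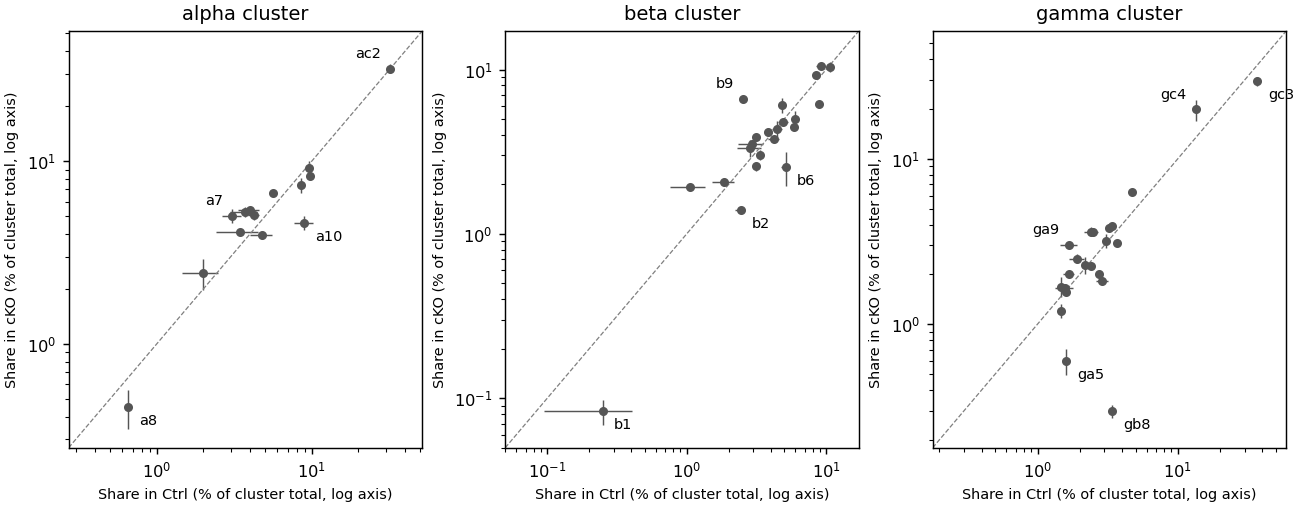
Mean share of each member in its cluster total (percent, log axes), cKO on the vertical and Ctrl on the horizontal axis; bars span the 2 libraries of a group and the dashed line marks equal shares. Pcdhgb8 is the point farthest below the line, at 0.298% in cKO and 3.42% in Ctrl, while Pcdhb9 and Pcdhgc4 lie above it.

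Genes that act on the clusters were tested in the same fit. None of 19 tested regulators of protocadherin promoters, among them Ctcf, the cohesin genes, Smchd1 and the DNA methyltransferases, passed over all genes with limma. At an unadjusted p under 0.05, 5 were lower in cKO and 0 higher, against 13.8% of all genes lower and 10.4% higher. Those 5 of 19 were the cohesin-related genes Smc3, Wapal, Nipbl (-0.35) and Pds5a (-0.36), and Rest (-0.35). The cohesin-related genes Rad21, Stag1, Smc1a, Stag2 and Pds5b were not among them, with differences of 0.06, 0.10, -0.08, -0.28 and -0.17. Rest was low, at 0.612 and 1.31 FPKM in cKO against 1.34 and 1.57 FPKM in Ctrl. Its cKO mean was under 1 FPKM, so it passed the filter through Ctrl alone. The lowest p-values were those of Smc3, a cohesin subunit, at 6.24 and 7.51 FPKM in cKO against 10.3 and 8.94 FPKM in Ctrl (log2 fold change -0.43, limma adjusted p = 0.0624), and of the cohesin release factor gene listed as Wapal (-0.45, adjusted p = 0.0773). None of 19 genes for binding or signalling partners passed either, and at an unadjusted p under 0.05 1 was higher and 2 were lower in cKO, 3 of 19, against 24.2% of all genes in either direction. The lowest p-values there were those of Ret (0.38, adjusted p = 0.109) and Ryk (-0.34, adjusted p = 0.1504). Of 11 protocadherins outside the clusters, the X-linked Pcdh11x rose, at 5.12 and 5.04 FPKM in cKO against 4.37 and 2.11 FPKM in Ctrl (0.57, adjusted p = 0.0273), with Ctrl 2 apart from the other 3 libraries.

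Genes around the clusters gave no common direction. Of 12 tested genes that flank or lie between the clusters, Rell2 and Fchsd1 rose, Tmco6 fell, and the median log2 fold change was -0.01. Among all genes tested, 4.13% rose and 6.54% fell, 10.7% in all. Rell2, downstream of the gamma cluster, was at 46.1 and 37.1 FPKM in cKO against 26.4 and 31.6 FPKM in Ctrl (0.50, limma adjusted p = 0.0452). Its overlapping neighbour Fchsd1 was at 25.2 and 19.5 FPKM in cKO against 13.4 and 17.0 FPKM in Ctrl (0.53, adjusted p = 0.0291). Reads in the stretch where these genes overlap cannot be told apart without strand. Tmco6, upstream of the alpha cluster, was at 3.62 and 2.88 FPKM in cKO against 4.70 and 6.05 FPKM in Ctrl (-0.58, adjusted p = 0.0109). Taf7, between the beta and gamma clusters, and Diap1, next to Pcdhgc5, did not pass, at -0.14 and -0.01.

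Markers of neurons, spinal interneurons and astrocytes were tested in the same fit. In whole cord, fewer cells of a type and less RNA per cell cannot be told apart. Of 15 neuron markers 1 rose, Gap43, 14 had a log2 fold change above 0, and their summed level was 4543 and 3774 FPKM in cKO, against 3158 and 3202 FPKM in Ctrl. Of 10 spinal interneuron markers 4 rose (Pax2, Lbx1, Lhx1 and Slc32a1), with sums of 269.9 and 227 FPKM in cKO against 216 and 166 FPKM in Ctrl. With an unadjusted limma p under 0.05, 5 neuron and 5 interneuron markers were higher in cKO and 0 of either list lower. By that measure, 10.4% of all genes were higher and 13.8% lower. The neuron and interneuron sums were 1.31-fold and 1.30-fold higher in cKO, while the alpha total was 1.31-fold, the gamma total 1.08-fold and the total of all members 1.06-fold higher and the beta total 1.27-fold lower. Of 12 astrocyte markers 1 rose, Slc1a3, and the sums were 1696 and 2150 FPKM in cKO against 2096 and 2306 FPKM in Ctrl, so the groups overlapped. At an unadjusted limma p under 0.05, 2 astrocyte markers were higher, Slc1a3 (0.62) and Fgfr3 (0.48). At that level 3 were lower, Gfap (-0.74), Aqp4 (-0.51) and S100b (-0.47), and 24.2% of all genes differed in either direction. Of all genes, 10.7% passed the adjusted threshold. The part of these markers in the member values was not tested.

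Of 11 myelin markers 10 fell, with sums of 6693 and 10510 FPKM in cKO against 16470 and 18720 FPKM in Ctrl. Of 8 oligodendrocyte precursor markers 4 fell (Gpr17, Neu4, Tnr and Vcan), with sums of 134 and 169 FPKM in cKO against 241 and 230.3 FPKM in Ctrl. Gpr17 alone was at 32.9 and 39.4 FPKM in cKO against 107.5 and 114 FPKM in Ctrl. The other 4, Pdgfra, Cspg4, Ptprz1 and Lhfpl3, did not pass, with log2 fold changes of 0.22, 0.26, 0.13 and 0.07. Among 8 meningeal markers 7 fell, with sums of 36.1 and 38.7 FPKM in cKO and 277 and 61.2 FPKM in Ctrl. Of 8 microglia markers 1 rose and 3 fell, of 9 vascular markers none passed with limma (1 higher and 1 lower of the 9 at an unadjusted p under 0.05), of 6 tested Schwann cell and ganglion markers 1 rose and 3 fell, and of 6 tested blood markers 3 rose and 3 fell. No marker was listed at 0 in any library. Their part in the member values was not tested either.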

How the data were processed

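Spinal cord RNA of the 2 cKO and 2 Ctrl libraries was prepared with Trizol and a TruSeq RNA kit, per the labels' protocols. The submitters' processing notes name CASAVA, TopHat, Cufflinks, Cuffdiff and mm9, with no versions. FPKM and coverage (a depth signal) are deposited per RefSeq transcript in the Cufflinks layout, per the file headers, and coverage is not scaled for depth. Counting with or without strand is not given in the sources used here.

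From the 28107 rows, 315 not marked OK in all libraries were left out; all members were OK. FPKM was summed per symbol over rows of at least 300 bases. Gene sums with a mean of at least 1 FPKM were tested on log2(FPKM + 1) with limma 3.58.1 in R 4.3.3 (genotype, empirical Bayes, mean-variance trend), with Benjamini-Hochberg adjustment over all genes; the spread rests on 36.3 prior and 2 residual degrees of freedom. Coordinates are mm9, starts raised by 1. The script was tested on simulated data. Named were the C-type members, the 3 highest of each subgroup, members past the threshold or 1.5-fold apart, the 3 largest changes per direction, and list genes past the threshold (otherwise the 2 with the smallest p); marker genes are mostly given as counts, and a few members were named after their values were seen. Members and lists were chosen with earlier results of these data known.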

Additional observations from a re-analysis of the deposited data

How the results depend on the processing

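The counts of 9 members higher and 4 lower depended on the fit. With no filter 0 rose and 1 fell, with sums over all rows 0 and 1, and with transcripts 0 and 0. Under median-of-ratios scaling 5 rose and under TPM scaling 2 rose. Leaving out 1 library gave 1 to 9 higher and 1 to 6 lower. By the 1.5-fold rule 3 lay higher and 5 lower; at 2-fold 0 and 2, with any gap 21 and 16, and without 1 library 4 to 10 and 5 to 8. The log2 ratios of the totals kept their sign under every scaling, and without 1 library ran from 0.24 to 0.55 (alpha), -0.44 to -0.23 (beta) and 0.061 to 0.16 (gamma). Of 474 refits of named members, 1 reversed: Pcdha12, at -0.0010 without Ctrl 2 and up to 0.26 without another library. Pcdhgb8 passed in 16 of its 17 alternatives and Pcdhga9 in 14. The cause of these changes was not tested.

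Same-numbered libraries deviated from their group means in opposite ways (correlation across genes -0.24), so no shift shared by same-numbered libraries was seen. Single libraries also differed in depth, sex-linked and meningeal RNA, so this correlation cannot tell whether the numbers pair the samples. With a replicate block, 6 members rose and 4 fell. With the numbers crossed, a choice made after seeing the data, 11 rose and 5 fell. Depth limits the low members most in Ctrl 2.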
